A study of Caenorhabditis elegans with 2 samples.

Results

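The vitellogenin genes of the nematode Caenorhabditis elegans are the 6 genes vit-1, vit-2, vit-3, vit-4, vit-5 and vit-6, chosen as a gene family by name and not by any measured value, among 19973 protein-coding genes of the nuclear chromosomes. Their binding by UNC-62 was examined in chromatin immunoprecipitation and sequencing (ChIP-seq) of whole animals, with 2 biological replicates in 1 group. The strain, OP600, carries the mutation written unc119(ed3) and the insertion wgIs600, which holds unc-62 joined to TY1, EGFP and FLAG tags together with an unc119 rescue copy. The animals were of mixed sex, and the labels give the stage as dauer in 1 field and as D4 in another. The antibody is labelled unc-62. No untagged strain, other stage or other genotype was analysed here, so the vit loci were compared with other places in the same genome. The strain is a single integrated line whose insertion carries its own unc-62 sequence, and whole animals do not show in which tissue a region was bound.

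Vitellogenins are yolk proteins. In the adult hermaphrodite they are made in the intestine, secreted into the body cavity and taken up by oocytes through the receptor RME-2. UNC-62 is a homeodomain protein of the Meis class, and earlier genetic work placed it among the factors needed for yolk protein production in adults, beside the intestinal GATA factor ELT-2 and the Pbx-class protein CEH-60. The promoters of vit genes are known for a pair of short elements: VPE1, with the letters TGTCAAT, and VPE2, with the letters CTGATAA, which holds a GATA site. vit-6 encodes the precursor of the smaller yolk proteins, and vit-1 to vit-5 encode or resemble the large ones.

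The sequence before the gene start is shown for 4 of the genes, because it holds the elements named above and, at vit-4, the replicate summit closest to any vit start. vit-6 is shown as the member on another chromosome. Each line gives the 250 bases before the annotated gene start (RefSeq sequence of build WBcel235, which is ce11), 5′ to 3′ on the strand of the gene. Capitals mark matches on either strand to VPE1, to VPE2, to the GATA letters (AGATAA or TGATAA, each also with a final G), or to TGACAG, the core letters bound by Meis proteins. The printed stretches before vit-4 and vit-6 each overlap 1 annotated exon.
vit-2, chrX:5100792-5101041, plus strand: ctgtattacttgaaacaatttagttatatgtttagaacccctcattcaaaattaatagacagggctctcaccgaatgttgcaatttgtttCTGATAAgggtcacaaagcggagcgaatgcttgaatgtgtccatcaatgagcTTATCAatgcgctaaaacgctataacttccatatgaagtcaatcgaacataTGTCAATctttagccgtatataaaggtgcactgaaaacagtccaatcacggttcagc
vit-4, chrX:3563966-3564215, minus strand: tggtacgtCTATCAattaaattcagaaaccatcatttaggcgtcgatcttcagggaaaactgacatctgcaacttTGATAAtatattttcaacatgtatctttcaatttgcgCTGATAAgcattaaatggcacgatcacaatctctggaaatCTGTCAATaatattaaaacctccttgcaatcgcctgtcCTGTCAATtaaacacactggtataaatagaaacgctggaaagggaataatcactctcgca
vit-5, chrX:3403221-3403470, plus strand: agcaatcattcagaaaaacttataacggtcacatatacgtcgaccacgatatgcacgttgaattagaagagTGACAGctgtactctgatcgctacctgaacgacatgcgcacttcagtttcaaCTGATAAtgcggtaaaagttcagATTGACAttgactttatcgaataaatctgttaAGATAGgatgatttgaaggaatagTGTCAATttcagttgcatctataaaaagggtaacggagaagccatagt
vit-6, chrIV:8260907-8261156, plus strand: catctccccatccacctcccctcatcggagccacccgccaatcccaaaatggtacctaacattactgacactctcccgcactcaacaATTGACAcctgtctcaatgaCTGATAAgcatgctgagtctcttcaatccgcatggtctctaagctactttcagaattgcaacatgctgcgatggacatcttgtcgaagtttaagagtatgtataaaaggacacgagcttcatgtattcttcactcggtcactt

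The 5 genes vit-1 to vit-5 lie on chromosome X and vit-6 lies on chromosome IV. vit-1 (WBGene00006925) spans X 7727889 to 7733168 on the plus strand, and vit-2 (WBGene00006926) spans X 5101042 to 5106169 on the plus strand. vit-3 (WBGene00006927, X 3567355 to 3572549) and vit-4 (WBGene00006928, X 3558769 to 3563965) are neighbours on the minus strand with 3389 bp between them, so their windows overlap and share summits. vit-5 (WBGene00006929, X 3403471 to 3408603, plus strand) lies 150165 bp from vit-4, and vit-6 (WBGene00006930) spans IV 8261157 to 8266459 on the plus strand. All 6 are alike in build, with lengths of 5128 to 5303 bp, 5 or 6 exons and 94.8% to 96.4% exon sequence. A window here is the gene body with 5000 bp on either side, and the 6 windows join into 5 stretches of 84625 bp in all.

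The authors deposited 4 region lists on ce11: 30000 regions for each replicate, 2155 for both replicates pooled, and 95 in the optimal set that passed an irreproducible discovery rate (IDR) threshold, named reproducible here. The replicate and pooled lists are labelled as peaks and background, so a region in them is not by itself a bound site. The signal is the authors' value per region, on a scale that is not stated, and ran from 3.86 to 583 with a median of 5.43 in replicate 1 and from 4.10 to 149 with a median of 5.65 in replicate 2. Only 201 regions of replicate 1, 136 of replicate 2 and 0 pooled regions had a deposited q value below 0.05. Of the 95 reproducible regions 0 did, and the lowest q value in both the pooled and the reproducible list was 0.151. Sequencing depth is unknown from the files, the replicates were used as 2 libraries of 1 group with no comparison between groups, and no p-value is given.

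The vit loci held 0 reproducible regions, and the pooled list held 2 regions there, both near the far ends of the windows. Neither was among the first 1000 by signal, where 47.1% of the 816 other pooled summits on IV and X were. With 2 regions this is too few to tell apart. In body or flanks, 0 of 6 vit genes had a reproducible summit, where 0.986% of all protein-coding genes had one. A pooled summit was present at 2 of 6 vit genes, vit-1 and vit-4, where 22.1% of protein-coding genes had one. Of windows of the vit-1 width laid end to end over the rest of X, 32.9% held at least 1 pooled summit, and on IV 22% of windows of the vit-6 width did. The share at the vit genes, 2 of 6, is near these backgrounds.

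The pooled summit at vit-1 lay 4027 bp past the 3′ end of the gene, at X 7737195 in intergenic sequence, and 924 bp before the start of set-12, the nearest gene. Its pooled signal was 17.1, which ranked 1247 of 2155, with a q value of 0.849. Replicate 1 had a summit 25 bp away with a signal of 9.19 (rank 2166), and replicate 2 had a summit 45 bp away with a signal of 5.02 (rank 20172). The pooled summit at vit-4 lay 4419 bp past its 3′ end, at X 3554350 in an intron of rgs-7, a gene named for a regulator of G protein signalling. Its pooled signal was 16.5 (rank 1555, q value 0.881), beside a replicate 1 signal of 5.76 (rank 12789) and a replicate 2 signal of 11.2 (rank 847). Replicate 1 thus carried more of the signal at vit-1 and replicate 2 more of that at vit-4, by rank within each list. Both summits are nearer to another gene than to the vit gene. The 101 bases around each pooled summit, on the strand of the vit gene, are shown since these are the only pooled summits at the loci. They hold no match to the elements named above.
vit-1 pooled summit, chrX:7737145-7737245, plus strand: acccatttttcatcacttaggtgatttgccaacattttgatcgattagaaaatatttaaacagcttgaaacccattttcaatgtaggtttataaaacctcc
vit-4 pooled summit, chrX:3554300-3554400, minus strand: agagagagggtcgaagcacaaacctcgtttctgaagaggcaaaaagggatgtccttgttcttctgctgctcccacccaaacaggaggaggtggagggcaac

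**Figure D1:**
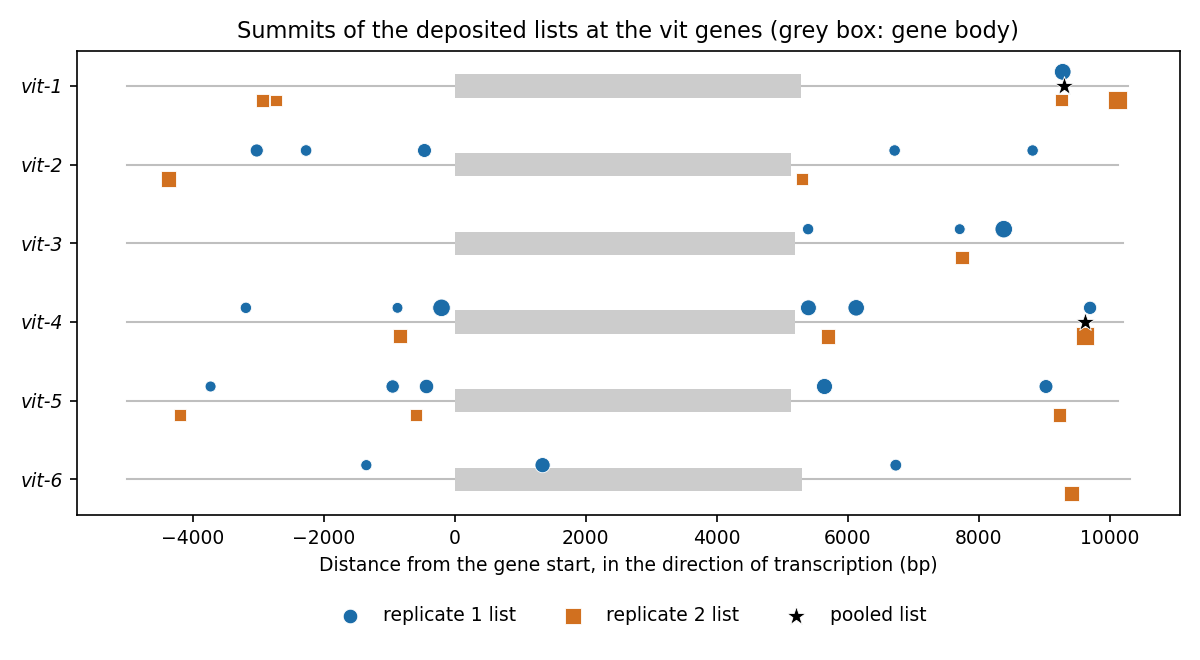
Summits at the 6 vit genes, 1 row per gene, against the distance from the gene start in bp (negative values lie upstream). Circles are replicate 1 summits and squares replicate 2 summits, with areas scaled to the signal, and stars are pooled summits at a fixed size; the only summit inside a grey body is that of replicate 1 in vit-6. The vit-3 and vit-4 windows overlap, so 4 replicate summits appear in both rows.

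The replicate lists held 20 summits in the vit windows for replicate 1 and 13 for replicate 2, and every gene had at least 1 in each. All but the replicate 1 count of vit-4 were below the average of other windows, those of vit-2 and vit-5 in replicate 1 only slightly. In replicate 1 the windows of vit-1, vit-2, vit-3, vit-4 and vit-5 held 1, 5, 3, 6 and 5 summits, where windows of the same widths elsewhere on X averaged 5.07 to 5.13. In replicate 2 the same genes had 4, 2, 1, 3 and 3 summits, against averages of 5.06 to 5.12 elsewhere on X. vit-6 had 3 summits in replicate 1 and 1 in replicate 2, against 4.51 and 4.35 in windows of its width elsewhere on IV. The vit-4 window had the most summits in replicate 1, and 41.8% of windows elsewhere on X held as many. At the low end, 4.58% of windows held as few as the 1 replicate 2 summit of vit-3, and 5.83% held as few as the 1 replicate 1 summit of vit-1. The windows include the gene bodies. Outside the bodies of the 5 X-linked genes, replicate 1 had 3.92 summits per 10000 bp, against 3.35 over the rest of X. For replicate 2 the values were 2.77 and 3.35.

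**Figure D2:**
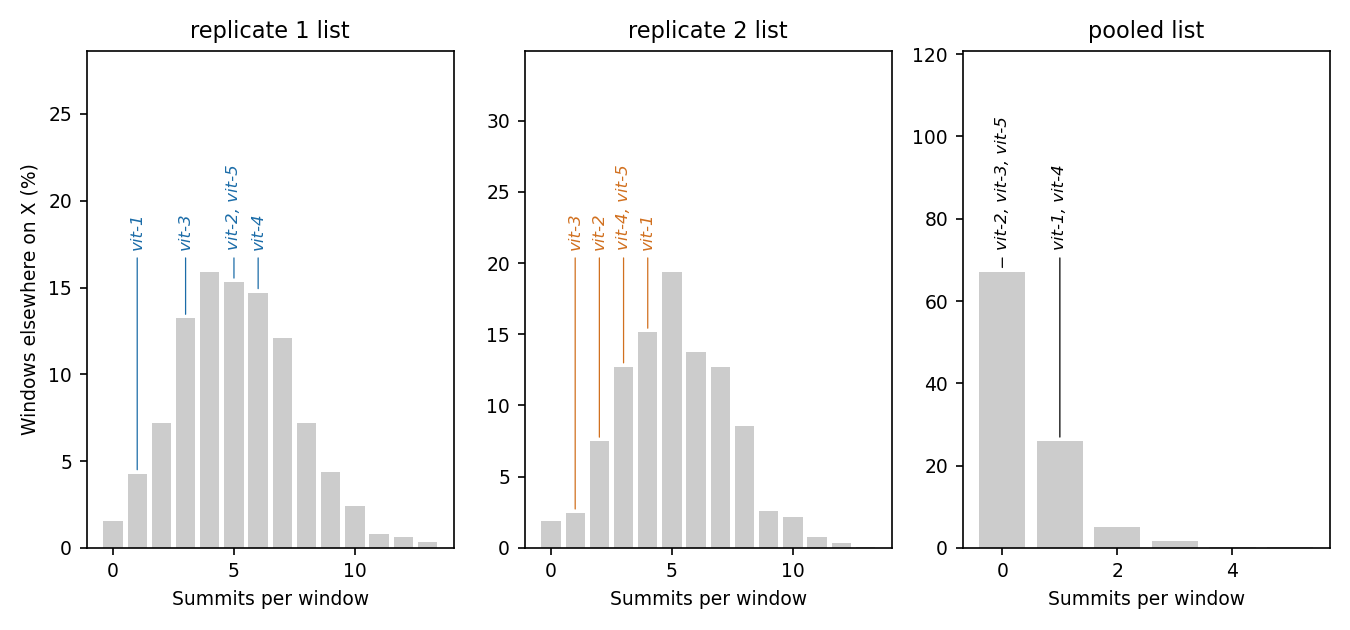
Summits per window in the 3 lists, with grey bars for the percentage of 1150 windows of the vit-1 width elsewhere on X at each count, and names placed at the counts of the 5 X-linked vit genes. In replicate 2 all 5 genes lie below the average of 5.12, and in the pooled list they lie at 0 or 1.

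The summits at the vit loci had signals close to those of summits elsewhere. In replicate 1 the 20 summits had signals of 3.86 to 10.1 with a median of 5.81, against a median of 5.46 over the 11069 other summits on IV and X. In replicate 2 the 13 summits ran from 4.12 to 11.2 with a median of 5.97, against 5.63 over 10873 others. None of the 20 ranked among the first 1000 of replicate 1, where 3.28% of the others did, and 2 of 13 did in replicate 2, where 3.30% did. Among the first 5000 were 5 of 20 in replicate 1, where 17.1% of the others were, and 3 of 13 in replicate 2, where 16.5% were. The 2 among the first 1000 of replicate 2 were the summit in the rgs-7 intron and the summit with the highest replicate 2 signal at the loci, 11.2 at rank 845, which lay 4840 bp past vit-1 and 838 bp from any replicate 1 summit. The lowest q value at the loci was 0.162 in replicate 1 and 0.201 in replicate 2.

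Within 200 bp, most summits at the vit genes had no partner in the other replicate, and the same held elsewhere. Of the 20 replicate 1 summits, 4 had a replicate 2 summit within 200 bp, or 20% (95% exact binomial interval 5.73 to 43.7), where 23.6% of the other replicate 1 summits on IV and X did. Of the 13 replicate 2 summits, 4 were matched, or 30.8% (9.09 to 61.4), where 24.2% of the others were. The intervals cover counting error only. Within 500 bp, 45% of the replicate 1 summits and 53.8% of the replicate 2 summits were matched, against 38.9% and 39.5% elsewhere on IV and X. The 4 pairs lay before set-12 in the vit-1 window, in the rgs-7 intron, upstream of vit-4 and upstream of vit-5, and the windows of vit-2 and vit-6 held none. At least 1 pair was present in 69.7% of windows of the vit-1 width elsewhere on X and in 60.2% of windows of the vit-6 width elsewhere on IV. A pair in the window was thus the more frequent case elsewhere as well, and vit-1, vit-3, vit-4 and vit-5 had 1, 1, 2 and 1, where the vit-3 pair is 1 of those of vit-4.

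Apart from a replicate 1 summit in the vit-6 body, the other summits lay in the flanks, many of them in or beside other genes. In the vit-2 window the highest signal was that of replicate 2 (rank 4533) in a coding exon of acn-1, 4372 bp before the vit-2 start, and its 5 replicate 1 summits had signals of 4.26 to 6.41. Past vit-4, replicate 1 summits of signal 8.93 and 8.28 lay 932 bp and 203 bp beyond the 3′ end, with a replicate 2 summit of signal 7.24 lying 299 bp from the nearer one. Past vit-5, a replicate 1 summit of signal 8.48 lay 512 bp beyond the 3′ end in a coding exon of unc-78, and the nearest replicate 2 summit was 3587 bp away. In the vit-6 window, the 3 replicate 1 summits had signals of 4.08, 7.59 (in the body) and 4.56, and the replicate 2 summit 6.66. The closest summits of the 2 replicates there were 2681 bp apart.

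Upstream of the genes, vit-4 and vit-5 had a summit of each replicate between 1000 bp before and 200 bp after the gene start, vit-2 had 1 in replicate 1 only, and vit-1, vit-3 and vit-6 had 0 in either. Among all protein-coding genes, 36.1% had such a summit in replicate 1, 34.9% in replicate 2 and 15.8% in both. A pair within 200 bp lay there at 2 of 6 vit genes, against 9.74% of protein-coding genes. A pooled summit lay there at 0 of 6 vit genes, against 3.56%. At vit-5 the pair lay 432 bp and 592 bp before the start, with a replicate 1 signal of 6.88 (rank 7300) and a replicate 2 signal of 4.58 (rank 24523). Both members of this pair were nearer to the gene C04F6.9, at 311 bp and 151 bp, than to vit-5. The pair at vit-4 lay 875 bp and 839 bp before the start, with a replicate 1 signal of 3.86 (rank 29968) and a replicate 2 signal of 5.97 (rank 12885), so that its replicate 1 member was among the last of the list. The strongest upstream summit was in replicate 1, 203 bp before vit-4, within the sequence printed for that gene. Its signal was 10.1 (rank 1346, q value 0.162), and the nearest replicate 2 summit was 636 bp away. At vit-2, a replicate 1 summit lay 463 bp before the start (signal 6.41, rank 9268) and the nearest of replicate 2 was 3909 bp off.

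All 6 vit genes held VPE1 between 250 bp before and 50 bp after the gene start, with 8 matches in all, where 5.77% of all promoters of the same length hold it. vit-4 and vit-5 had 2 matches each and the others 1. VPE2 was found at 5 of 6, all but vit-3, against 8.15% of promoters. The GATA letters were at 6 of 6, against 54.5% of promoters, and every VPE2 match counts as a GATA match as well, since it contains TGATAA. The Meis core letters TGACAG were at vit-1, vit-4 and vit-5, against 9.68% of promoters, and 3 of its 4 matches, 1 at vit-1 and 2 at vit-4, overlap a VPE1 that has a C before it. Counted from the gene start, the first base of the closest VPE1 match lay at -57 for vit-2, -50 for vit-3, -59 for vit-4 and -48 for vit-5, and at -115 for vit-1 and -163 for vit-6. VPE1 and VPE2 are known from vit promoters, so their presence at these genes was given beforehand and is not a result of these data. These promoters are related by descent, so the genes are not independent counts, and a match is a string of letters, not a bound site.

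**Figure D3:**
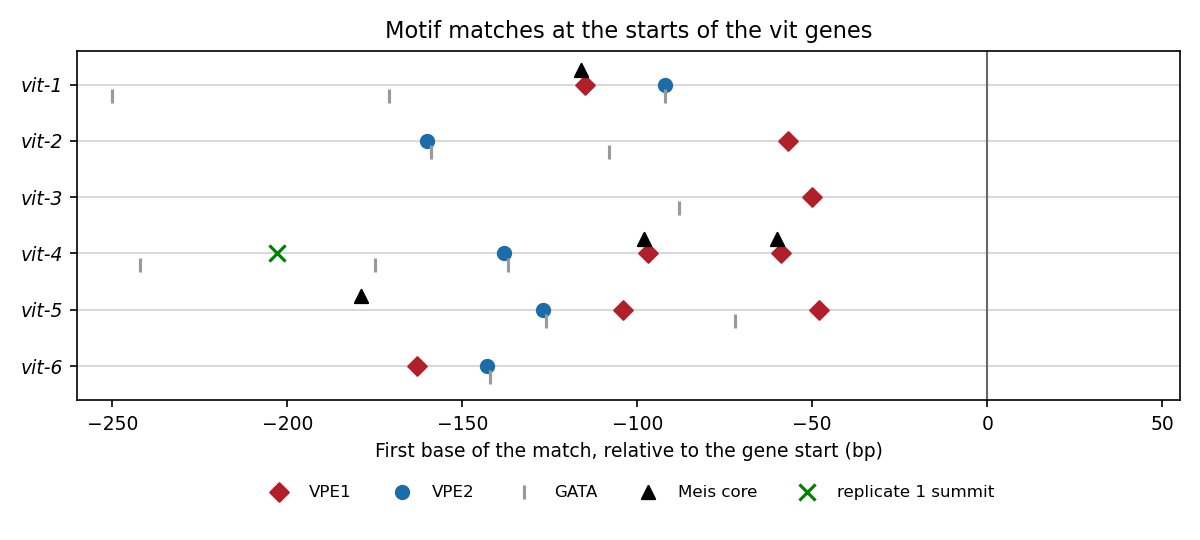
Motif matches from 250 bp before to 50 bp after the start of each vit gene, with the first base of each match on the horizontal axis in bp. Every gene has a VPE1 match, and the single replicate summit in the range, that of replicate 1 at vit-4, lies 203 bp before the start.

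The summits at the vit genes were too few to tell the shares with each element from those of summits elsewhere. Within 100 bp of a summit, VPE1 was found at 1 of 20 replicate 1 summits and 1 of 13 replicate 2 summits in the vit windows, against 4.28% and 4.59% of the others on IV and X. Both belonged to the weak pair 875 bp and 839 bp before vit-4. VPE2 was at 2 of 20, or 10% (1.23 to 31.7), and 0 of 13 (upper bound 24.7), against 4.02% and 4.18%. GATA letters were at 9 of 20 and 8 of 13, or 45% (95% exact binomial interval 23.1 to 68.5) and 61.5% (31.6 to 86.1), against 40.1% and 39.4%. Of the VPE2 summits, 1 lay 200 bp past the 3′ end of vit-3 and the other was the replicate 1 summit 203 bp before vit-4, which had 3 GATA matches within 100 bp, the VPE2 included. TGACAG was at 1 of 20 and 0 of 13, against 7.44% and 7.75%, and the match lay at the replicate 1 summit 3024 bp before vit-2.

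All but 1 of the vit gene bodies were free of replicate summits. The bodies of vit-1, vit-2, vit-3, vit-4 and vit-5 held 0 summits in either replicate, and that of vit-6 held 1, a replicate 1 summit in coding sequence 1340 bp after the start (signal 7.59, rank 5007). Thus 5 of 6 bodies were free of summits, where 7.61% of the 1366 other protein-coding genes of 4500 to 6000 bp were, with an average of 3.07 summits over both lists. Among the 17 of those with at least 90% exon sequence, 5.88% were free of summits. Of windows of the vit-1 body length elsewhere on X, 5.48% had none in either list. This comparison was chosen after the positions were seen. The X-linked bodies share sequence with each other, as given below, so they are not independent counts. Per 10000 bp on X, replicate 1 had 0 summits in the 5 bodies, 3.92 in the rest of their windows and 3.35 over the rest of X, and replicate 2 had 0, 2.77 and 3.35. Pooled summits came to 0, 0.461 and 0.275 per 10000 bp in the same order.

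The stretches free of summits in both lists were 11991 bp at vit-1, 5759 bp at vit-2, 13229 bp at vit-3, 5601 bp at vit-4 and 6075 bp at vit-5. On X the median distance between neighbouring summits was 1013 bp, and of the 11853 intervals 0.253% were as long as that at vit-1, 2.27% as that at vit-2, 0.160% as that at vit-3, 2.52% as that at vit-4 and 1.89% as that at vit-5. An interval that spans an empty body is at least as long as that body, so these shares add nothing independent to the counts above. At vit-2, vit-3 and vit-4 a summit lay close outside the 3′ end, at 170 bp, 200 bp and 203 bp. That of vit-2 was in replicate 2 (signal 4.50, rank 25356). Those of vit-3 (signal 4.23, rank 25760) and vit-4 (signal 8.28, rank 3454) were in replicate 1. None had a partner in the other replicate within 200 bp.

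The vit genes share much of their sequence with each other. The coding sequences of vit-3 and vit-4 had 4761 of 4809 aligned bases in common, while those of vit-4 and vit-5 were 97.8% identical, those of vit-3 and vit-5 97.7% and those of vit-1 and vit-2 94.0%. vit-6 was 55.2% to 56.7% identical to the others. Of the 32-base words in each body, 77.6% occurred at a single place in the genome for vit-1, 76.9% for vit-2, 19.8% for vit-3, 16.4% for vit-4 and 39.4% for vit-5. For vit-6, the gene with a summit in its body, the share was 100%. Over all of X it was 94.5%, and over IV 89.8%. The flanks differed too: those of vit-6 had 52.6% and 85.7%, the flanks of vit-3 and vit-4 that face each other 76.4% and 76.3%, and the other flanks 99.6% to 100%. The part of the vit-6 flanks in its low window counts was not tested. A read that lies wholly in repeated sequence matches more than 1 place, and neither the read length nor the treatment of such reads is given in the sources used here.

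Other genes of 4500 to 6000 bp were set out by the same measure. Of 710 with more than 99% single-place words, 2.11% had no summit in the body and the average was 3.65. Of 119 with 70% to 85%, the range that holds vit-1 and vit-2, 22.7% had none and the average was 1.75. Of 14 with 10% to 45%, the range that holds vit-3, vit-4 and vit-5, 57.1% had none and the average was 0.714. Genes with more repeated words more often lacked summits in these counts. The part of repeated sequence in the empty vit bodies was not tested. Around the 20 and 13 replicate summits at the vit loci, within 100 bp, at least 98.2% of words occurred at a single place. All words did so at 95% of the replicate 1 summits and 92.3% of the replicate 2 summits there. Elsewhere on IV and X the shares were much the same, 94.1% and 93.8%.

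**Figure D4:**
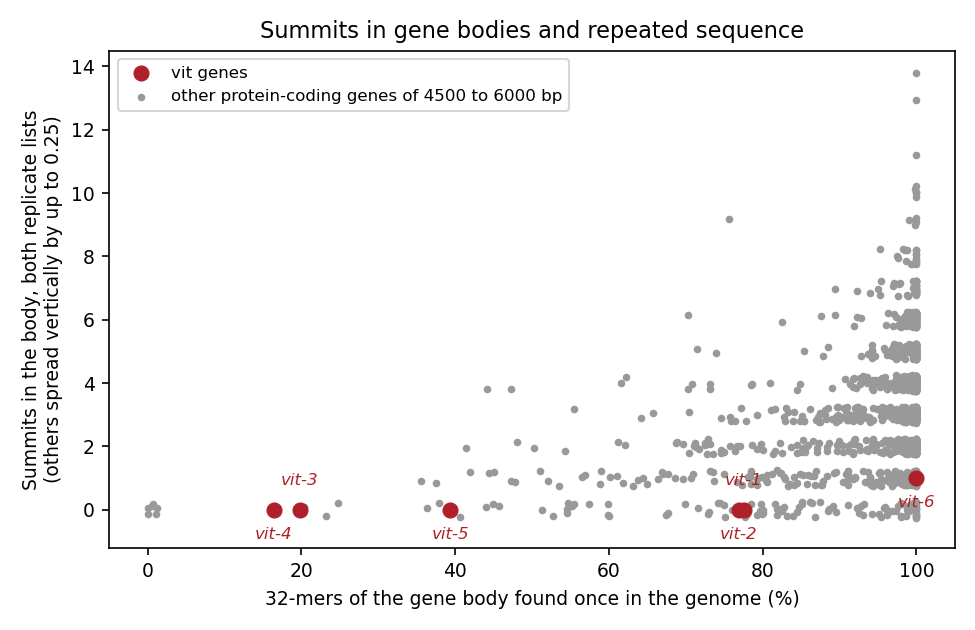
Summits in the gene body, added over both replicate lists, against the percentage of 32-base words of the body found at a single place in the genome, for the 6 vit genes in red and 1366 other protein-coding genes of 4500 to 6000 bp in grey. The vit genes with 0 summits lie between 16.4% and 77.6%, and vit-6 with 1 summit lies at 100%.

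Of 16 other genes of the yolk pathway, 6 had a pooled summit in body or flanks, where 22.1% of all protein-coding genes had one, and 1, unc-62, had reproducible ones, where 0.986% had. Without unc-62, 5 of 15 had a pooled summit and none had a reproducible one. The difference from all genes was not tested. At unc-62, which is also carried by the insertion, there were 8 pooled summits with a highest signal of 82.4, and 3 reproducible ones. Next was elt-7, which encodes an intestinal GATA factor, with 1 pooled summit of signal 22.4 (rank 317), 4754 bp after its start and past its end. daf-2, the insulin receptor gene, had 2 pooled summits with a highest signal of 20.1, and 1 of them lay within 1000 bp before the start. rme-1, an endocytic recycling gene, had 1 (signal 18.7). rict-1, which encodes a subunit of the TORC2 kinase complex, had 2 (highest signal 16.3), and mab-3, which represses vit genes in males, had 2 (highest signal 16.1). The other 10 had 0: the yolk receptor gene rme-2, ceh-60, elt-2, lin-29, pqm-1, daf-16, sgk-1, lrp-2, rme-8 and the lipid transfer gene dsc-4. Between 1000 bp before and 200 bp after the start, rme-2 and daf-2 had a replicate pair, 2 of 16 genes, which is near the 9.74% of all protein-coding genes. Windows are wider for longer genes, and these counts were not divided by width.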

How the data were processed

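The authors deposited region lists in narrowPeak form, as the lists filed with each sample say: 1 per replicate, 1 called on both replicates pooled and 1 reproducible set. Column 7 is the authors' deposited signal value per region and column 9 the deposited −log10 q value, printed here as q. No label or header used here names the aligner or the peak caller. Lists on ce10 were not used, as no sequence or annotation of that build was at hand.

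A summit is the region start plus the summit offset, given 1-based. Genes came from Ensembl release 115 (46926 genes) and sequence from the RefSeq copy of WBcel235, the same build as ce11. Windows elsewhere were laid end to end from position 1 of the chromosome, leaving out vit windows and the incomplete last one. Counting and matching were tested on simulated summits. Single-place words are 32-mers counted on both strands. Coding identity came from global alignment. Tools were Python 3.11.15, numpy 2.4.6, pandas 2.3.3, scipy 1.17.1, Biopython 1.88 and matplotlib 3.10.9.

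The members, lists and motifs were chosen with earlier results of these data known. Named are the members, pathway genes with a pooled summit, and genes at pooled or paired summits; acn-1 and unc-78 were named after their values were seen. Body and repeated-sequence comparisons were chosen after the summits were seen. Intervals are exact binomial (95%). No test was run, since there is 1 group, and p-values are not given. Depth is unknown.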

Additional observations from a re-analysis of the deposited data

How the results depend on the processing

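With 2000 bp flanks there were 0 pooled summits, at 0 genes, and 8.5 summits per replicate against 16.5, while 10000 bp flanks gave 32.5. Counting any overlap of a region changed none of the counts tried. Both pooled summits fell outside the 1000 pooled regions of highest signal, which left 0 summits at 0 genes. Of other pooled summits on IV and X, 47.1% lay inside. In the 5000 regions of highest signal of each replicate, 5 replicate 1 and 3 replicate 2 summits remained at the loci, an average of 4. Of these, 0% were matched in either direction, and 0 genes had an upstream summit in both replicates. Matched shares of other summits and shares of other genes are not given for these shorter lists, so these zeros have no such background beside them. The count of genes with an upstream summit in both replicates was also 0 from 500 bp upstream to 100 bp downstream. It was 2 from 2000 bp upstream to 500 bp downstream. Shares of all protein-coding genes are not given for these stretches, and no background is given for the 2000 bp and 10000 bp flanks. Within 500 bp, 45% of replicate 1 and 53.8% of replicate 2 summits were matched. In 1000 bp upstream, 51 motif matches were found against 29 in the shorter stretch, with each VPE2 counted as GATA as well. Over all promoters the share with a match rose too. It went from 5.77% to 18.5% for VPE1, 8.15% to 20.8% for VPE2, 54.5% to 89.9% for GATA and 9.68% to 29.1% for TGACAG. Without either replicate, the other held 13 to 20 summits in the windows and left 5 to 6 bodies with none. The alternatives for bodies were chosen after seeing the data. No gene had a count that under 5% of windows reached or exceeded, in the replicate or pooled lists. The same held with windows shifted along the chromosome or laid over all nuclear chromosomes, although 2 and 12 of the 18 shares moved beyond their counting interval. These shares address high counts only. For vit-2, vit-3, vit-5 and vit-6, with 0 pooled summits, the pooled share is 100% by construction. Shares of windows with as few summits are not given for the shifted windows or for all chromosomes. No paired analysis was possible because there is 1 group. The unknown depth limits what an absent summit can show.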
